A study of Mus musculus with 6 samples.

Results

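Glycolysis turns glucose into pyruvate, and the steps at its end decide whether pyruvate leaves the cell as lactate or enters the mitochondrion. The genes described here are 37 mouse genes of these steps, chosen by their symbols: glucose carriers, hexokinases, the enzymes from phosphoglucose isomerase to pyruvate kinase, lactate dehydrogenases, monocarboxylate carriers, pyruvate dehydrogenase with its kinases, fructose bisphosphatase and 3 enzymes of the pentose phosphate pathway. All 37 were found among the 31130 genes of the count tables, and Aldoa stood on 2 rows. RNA was sequenced from tumor tissue of 2 groups of wild-type (WT) mice, LC (lung cancer alone, n = 3) and IP + LC (lung cancer with interstitial pneumonia, n = 3), and the question here is at which steps, and for which isoforms of a step, the groups differed. The labels name the injected line but not the strain. The study describes LLC tumors in C57BL/6 mice, and its methods give its mice as females of 6 to 8 weeks of age. Both groups received an injection of LLC (Lewis lung carcinoma) cells, a line from a mouse lung tumor that here carries a green fluorescent protein, into the left lung on day 14, and tumors were taken on day 21. The IP + LC mice had received bleomycin, a drug that injures the lung, at 2 mg/kg by oropharyngeal aspiration, 14 days ahead of the cells, and the LC mice had received saline by the same route. These libraries come from tumors of 1 injected line, and although the labels give the cell type as lung cancer cells, the RNA came from whole tumor tissue. In such bulk samples, fewer cells of a type and less RNA per cell cannot be told apart.

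Each step of glycolysis is run by a small family of enzymes encoded by different genes, which differ in where they are used and how they are controlled. Hexokinases trap glucose in the cell as glucose 6-phosphate, phosphofructokinase commits the sugar to glycolysis, and lactate dehydrogenase restores the NAD+ that the pathway consumes by turning pyruvate into lactate. Pyruvate dehydrogenase kinases switch off pyruvate dehydrogenase and so hold pyruvate back from the mitochondrion. Many genes of the pathway are textbook targets of hypoxia-inducible factor 1, which binds short DNA motifs called hypoxia response elements.

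The promoter windows of 6 members are shown, which stand at the entry of glucose, at phosphofructokinase and at the exit of pyruvate. They were picked from the 8 members that differed between the groups whichever single tumor was left out. Hk3 and Slc16a1 differed in this way too but are not shown. Each is a RefSeq window on GRCm38.p6 from 250 bases before to 50 bases after a transcription start, written 5′ to 3′ on the strand of the gene. Capitals mark the core of the hypoxia response element, ACGTG or GCGTG, searched on both strands, so that CACGT and CACGC are the same letters read on the other strand and CACGTG, which holds the core on both strands, was counted once.
Hk2 (chr6:82774405-82774704, minus strand): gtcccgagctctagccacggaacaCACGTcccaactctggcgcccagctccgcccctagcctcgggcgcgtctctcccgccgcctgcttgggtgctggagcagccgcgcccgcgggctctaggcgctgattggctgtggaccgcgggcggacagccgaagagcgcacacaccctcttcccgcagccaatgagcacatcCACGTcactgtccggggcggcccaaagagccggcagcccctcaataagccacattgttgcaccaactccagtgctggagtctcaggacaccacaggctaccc
Slc2a1 (chr4:119108495-119108794, plus strand): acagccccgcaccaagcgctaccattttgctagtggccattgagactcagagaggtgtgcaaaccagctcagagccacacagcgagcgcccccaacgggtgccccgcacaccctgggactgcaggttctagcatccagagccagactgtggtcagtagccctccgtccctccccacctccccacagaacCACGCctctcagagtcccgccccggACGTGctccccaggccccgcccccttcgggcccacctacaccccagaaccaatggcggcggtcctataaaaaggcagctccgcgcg
Pfkp (chr13:6648722-6649021, minus strand): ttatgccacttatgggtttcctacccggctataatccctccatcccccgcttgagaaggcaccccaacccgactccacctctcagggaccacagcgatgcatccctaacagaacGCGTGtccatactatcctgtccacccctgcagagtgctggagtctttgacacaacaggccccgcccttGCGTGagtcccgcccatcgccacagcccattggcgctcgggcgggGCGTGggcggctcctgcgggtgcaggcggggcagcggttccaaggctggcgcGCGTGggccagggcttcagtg
Ldha (chr7:46845554-46845853, plus strand): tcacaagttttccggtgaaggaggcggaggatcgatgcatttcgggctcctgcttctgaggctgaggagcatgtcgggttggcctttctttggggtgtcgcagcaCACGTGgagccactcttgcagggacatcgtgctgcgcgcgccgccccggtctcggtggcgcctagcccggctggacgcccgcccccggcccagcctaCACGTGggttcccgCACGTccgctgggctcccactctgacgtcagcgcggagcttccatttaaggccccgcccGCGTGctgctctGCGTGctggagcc
Ldhb (chr6:142507908-142508207, minus strand): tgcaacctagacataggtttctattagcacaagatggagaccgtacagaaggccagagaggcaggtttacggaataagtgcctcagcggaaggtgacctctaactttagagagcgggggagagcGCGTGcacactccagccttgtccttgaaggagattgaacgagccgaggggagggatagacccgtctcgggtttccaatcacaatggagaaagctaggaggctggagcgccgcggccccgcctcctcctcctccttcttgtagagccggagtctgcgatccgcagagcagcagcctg
Pdk2 (chr11:95041322-95041621, minus strand): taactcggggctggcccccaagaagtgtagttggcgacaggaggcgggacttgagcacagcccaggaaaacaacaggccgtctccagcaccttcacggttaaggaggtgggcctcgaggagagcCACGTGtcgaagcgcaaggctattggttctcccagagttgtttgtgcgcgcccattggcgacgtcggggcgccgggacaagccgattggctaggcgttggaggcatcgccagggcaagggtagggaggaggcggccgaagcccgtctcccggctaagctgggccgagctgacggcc

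The Ldha window held 5 matches, the Pfkp window 4, the Slc2a1 and Hk2 windows 2 each and the Ldhb and Pdk2 windows 1 each. Ldha and Pdk2 had a second window each in the RefSeq table, with 2 matches and 0 matches. Those second windows are not shown, nor are the windows of Hk3 and Slc16a1, with 1 match and 4 matches. Windows were found for 36 of the 37 members, 56 in all, and 41 of them (73.2%) held the core, against 43.8% of all 32851 windows and 61.6% of the 11161 windows of genes tested for a difference between the groups. By outcome, 18 of 22 windows of the higher members, 2 of 3 windows of the lower members and 13 of 18 windows of the members that did not pass the test held it. The core thus stood in windows of members of every outcome. A match of 5 letters is a description of the sequence and not evidence of binding.

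The libraries held between 592733 unique molecular identifiers (UMIs, 1 per captured RNA molecule) in LC replicate 1 and 1631066 in IP + LC replicate 2. LC replicate 1 was the shallowest library and stood apart from the other LC tumors, with Pearson correlations across genes, on the log2(CPM + 4) scale, of 0.840 and 0.799 to LC replicates 2 and 3 against 0.962 between those tumors. Its correlations with the IP + LC tumors, from 0.796 to 0.822, were about as high as those with its own group. Its 6 proliferation markers summed to 486 CPM (UMI counts scaled to a common library size), against 110.5 and 112 CPM in LC replicates 2 and 3 and 867 to 999.9 CPM in the IP + LC tumors. Of all 11240 genes tested, 4088 differed between the groups at an adjusted p below 0.1, the limit that the study's methods use. Type 2 alveolar markers (34446 to 43018 CPM in LC against 6039 to 11142 CPM in IP + LC, 5 of 6 lower) and airway markers (49247 to 58156 against 3361 to 7225 CPM, 6 of 6 lower) were present in the tumor tissue of both groups, and no listed marker of any cell type was at 0 in all tumors. The part of tissue makeup in the results that follow was not tested.

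Most steps from glucose uptake to lactate export held a gene that was higher in the IP + LC tumors, while Ldhb and Pdk2 were lower. Of the 37 members, 29 had enough UMIs to be tested, 15 of these (51.7%) were higher in IP + LC and 2 (6.9%) were lower, and 12 did not pass the test. Over all genes tested, 16.8% were higher and 19.6% were lower. The median log2 fold change was 0.66 over the tested members and 0.02 over all genes tested. Values of the 3 tumors of each group did not overlap for 13 tested members that lay higher in IP + LC and for 2 tested members that lay lower, against backgrounds of 21.6% and 21.5% of all genes tested. Among the 15 higher members, 10 were at least 2-fold higher. Of the 17 calls, 8 held without each tumor in turn (Slc2a1, Hk2, Hk3, Pfkp, Ldha, Slc16a1, Ldhb and Pdk2), and 9 were lost without at least 1 tumor. The 12 enzymes Gpi1, Pfkl, Pfkm, Pfkp, Aldoa, Tpi1, Gapdh, Pgk1, Pgam1, Eno1, Pkm and Ldha together took 0.310%, 0.186% and 0.142% of the UMIs in LC replicates 1, 2 and 3 and 0.423%, 0.491% and 0.377% in IP + LC replicates 1, 2 and 3.

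**Figure D1:**
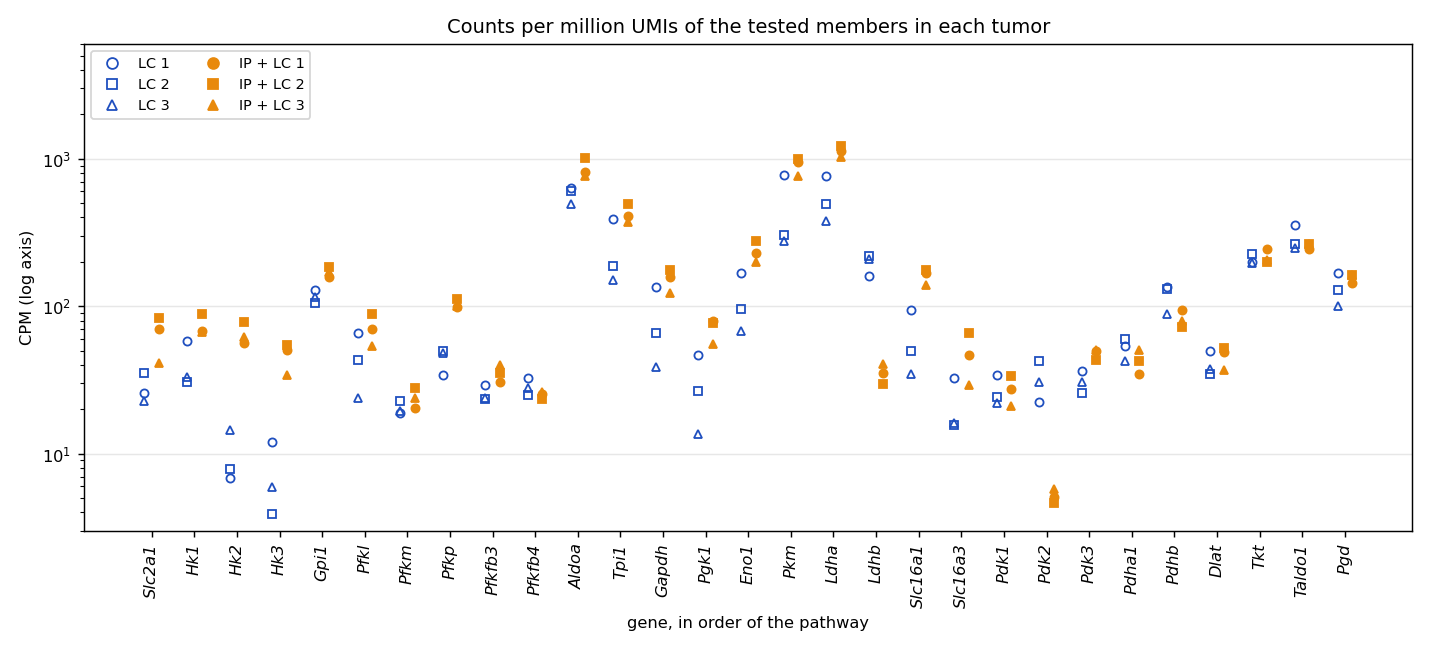
CPM of the 29 tested members (log axis) in the order of the pathway, with an open blue symbol for each LC tumor and a filled orange symbol for each IP + LC tumor. Hk2 and Hk3 stand clear above LC, Ldhb and Pdk2 clear below it, and for Pkm, Tpi1 and Gapdh the circle of LC replicate 1 lies among the IP + LC tumors.

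**Figure D2:**
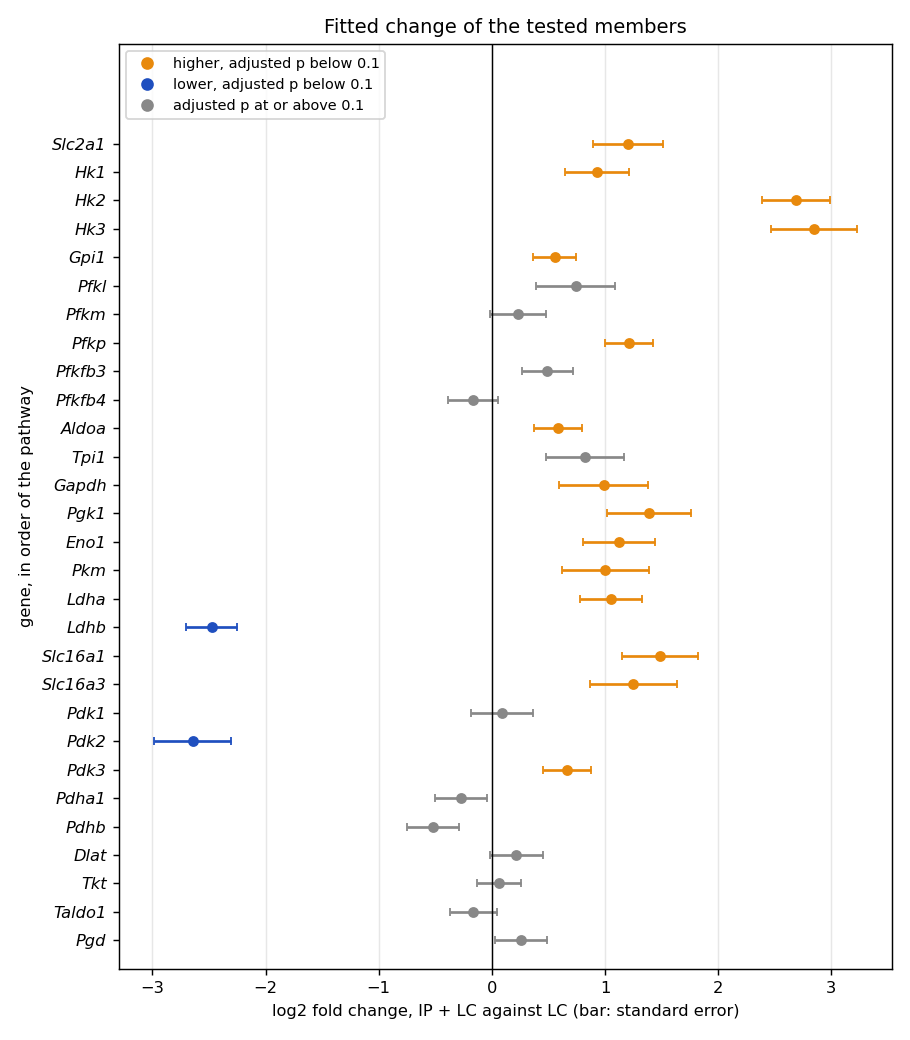
Log2 fold change of IP + LC against LC with its standard error (bars) for the 29 tested members, coloured by the call at an adjusted p below 0.1. The values run from -2.65 for Pdk2 to 2.85 for Hk3, with 15 members called higher and 2 called lower.

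Glucose enters most cells through the carrier Slc2a1 (GLUT1), which was higher in the IP + LC tumors. Slc2a1 stood at 25.8, 35.3 and 22.9 CPM in the LC replicates and at 70.3, 82.9 and 41.4 CPM in the IP + LC replicates, in the order 1, 2 and 3. All IP + LC tumors lay above all LC tumors, and Slc2a1 was 2.30-fold higher in IP + LC (log2 fold change 1.20, SE 0.31, edgeR adjusted p = 0.0210). Slc2a3 (GLUT3), a carrier with a high affinity for glucose, had too few UMIs to be tested, with 5, 11 and 10 UMIs in LC replicates 1, 2 and 3 and 5, 4 and 5 UMIs in the IP + LC replicates. Summed over the tumors and relative to depth, Slc2a3 was 2.73-fold higher in LC, with a 95% interval from 1.38 to 5.66 that covers counting error only. In the fit without a filter on low counts its adjusted p was 0.219.

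All 3 hexokinases were higher in the IP + LC tumors. Hexokinase 1 is the form found in most tissues. Hk1 had 58.5, 30.6 and 33.05 CPM in LC replicates 1, 2 and 3 and 67.4, 88.7 and 66.8 CPM in IP + LC replicates 1, 2 and 3. The groups did not overlap, and Hk1 was 1.91-fold higher in IP + LC (log2 fold change 0.93, SE 0.28, edgeR adjusted p = 0.0374). Hexokinase 2 is the form that many tumors use, and it binds mitochondria. For Hk2, LC replicates 1, 2 and 3 gave 6.89, 7.83 and 14.4 CPM and IP + LC replicates 1, 2 and 3 gave 56.6, 78.2 and 61.7 CPM. Every IP + LC tumor had several times the level of the highest LC tumor, and Hk2 was 6.44-fold higher in IP + LC (log2 fold change 2.69, SE 0.30, edgeR adjusted p = 0.000993). Hexokinase 3 is best known from myeloid cells. Hk3 stood at 12.1, 3.92 and 5.93 CPM in the LC replicates and at 50.8, 54.9 and 34.1 CPM in the IP + LC replicates, in the order 1, 2 and 3. Again no LC tumor reached the lowest IP + LC tumor, and Hk3 was 7.20-fold higher in IP + LC (log2 fold change 2.85, SE 0.38, edgeR adjusted p = 0.00151). The 8 macrophage markers summed to 13214 to 15718 CPM in LC and to 7922 to 9600.1 CPM in IP + LC, with 3 markers higher and 1 lower, and the 5 neutrophil markers summed to 797 to 1923 CPM and 145 to 318 CPM, with 3 lower and 0 higher. Most of the macrophage sum was Lyz2 (12374 to 13592 CPM in LC, 5473 to 7043 CPM in IP + LC), the 1 lower marker. Without Lyz2, the 7 other macrophage markers summed to 2301, 839.9 and 606 CPM in LC replicates 1, 2 and 3 and to 2235, 2819 and 2557 CPM in IP + LC replicates 1, 2 and 3. The part of macrophages and neutrophils in the Hk3 result was not tested. The LC values of Hk2 and Hk3 rested on 4 to 17 UMIs per tumor. The call for Hk1 was lost without LC replicate 2, LC replicate 3 or IP + LC replicate 2, with adjusted p-values up to 0.164 and log2 fold changes from 0.74 to 1.24 over the 6 fits that each left out 1 tumor.

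Within each tumor, the number of Hk2 UMIs for each Hk1 UMI was 0.118, 0.256 and 0.436 in LC replicates 1, 2 and 3 and 0.839, 0.882 and 0.924 in IP + LC replicates 1, 2 and 3. The ratio of Hk3 to Hk1 was 0.206, 0.128 and 0.179 in LC and 0.753, 0.618 and 0.511 in IP + LC. Both ratios lay higher in every IP + LC tumor, by 1.83 and 1.79 on the log2 scale. With 3 tumors against 3, the exact two-sided permutation test cannot give a p below 0.1, and both ratios were at that smallest value (0.167 after Benjamini-Hochberg adjustment over the 15 isoform pairs compared).

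Phosphoglucose isomerase, encoded by Gpi1, turns glucose 6-phosphate into fructose 6-phosphate. Gpi1 had 129, 105 and 116 CPM in LC replicates 1, 2 and 3 and 157, 184 and 171 CPM in IP + LC replicates 1, 2 and 3. The groups did not overlap, but the difference was small, and Gpi1 was 1.47-fold higher in IP + LC (log2 fold change 0.56, SE 0.19, edgeR adjusted p = 0.0595). Near-identical transcripts of other genes share 54.6% of the Gpi1 transcript and 25.2% of its last 500 nucleotides. Of its exons, 11.5% overlap the antisense gene Gm26762, and the use of the strand in counting is not given in the sources used here. The Gpi1 count is therefore uncertain. Its 1 pseudogene row held 1 UMI over all tumors, and with it added the log2 fold change was 0.56 (edgeR adjusted p = 0.0590). The call for Gpi1 was lost without any single tumor other than LC replicate 1, with adjusted p-values up to 0.201 and log2 fold changes from 0.48 to 0.64 over the 6 fits that each left out 1 tumor.

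Of the 3 phosphofructokinase genes, the platelet form Pfkp passed the test. For Pfkp, LC replicates 1, 2 and 3 gave 34.4, 49.4 and 48.3 CPM and IP + LC replicates 1, 2 and 3 gave 98.6, 113 and 100.2 CPM. The groups were far apart compared with the spread within each of them, and Pfkp was 2.31-fold higher in IP + LC (log2 fold change 1.21, SE 0.21, edgeR adjusted p = 0.00445). The liver form Pfkl (log2 fold change 0.74, SE 0.35, edgeR adjusted p = 0.147) and the muscle form Pfkm (log2 fold change 0.23, SE 0.25, adjusted p = 0.521) did not pass, and their groups overlapped. Without LC replicate 1, Pfkl passed the test (log2 fold change 1.09, SE 0.26, adjusted p = 0.00312), as it did under 4 other settings of the fit (adjusted p 0.0236 to 0.0997). These results do not show that the forms differed from each other. Within a tumor the ratio of Pfkp to Pfkl UMIs was 0.526, 1.15 and 2.04 in LC and 1.42, 1.28 and 1.87 in IP + LC, which overlapped (exact two-sided permutation p = 0.5). The ratio of Pfkm to Pfkl overlapped as well (p = 0.3 by the same exact test).

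The bifunctional enzymes of the Pfkfb family make or remove fructose 2,6-bisphosphate, the main activator of phosphofructokinase, and none of them passed the test with all tumors and the filter and scaling used here. Pfkfb3, whose product mostly makes the activator, had the smallest p of the family. Pfkfb3 stood at 29.3, 23.5 and 23.7 CPM in the LC replicates and at 30.5, 35.02 and 39.9 CPM in the IP + LC replicates, in the order 1, 2 and 3. The IP + LC tumors lay just above the LC tumors without overlap, but the adjusted p was 0.139 (log2 fold change 0.49, SE 0.22). Without LC replicate 1 it was 0.0464, with a log2 fold change of 0.58, and it was 0.0658 with scaling by library size only and 0.0905 with at least 10 UMIs required in every library. Pfkfb4 had a log2 fold change of -0.17 (SE 0.22, adjusted p = 0.599). The ratio of Pfkfb4 to Pfkfb3 was 1.12, 1.07 and 1.18 in LC and 0.833, 0.667 and 0.655 in IP + LC, which did not overlap (log2 difference -0.64, exact two-sided permutation p = 0.1). Pfkfb1 with 4 to 9 UMIs per tumor and Pfkfb2 with 1 to 17 UMIs were not tested. Fbp1, the fructose bisphosphatase of gluconeogenesis that runs against phosphofructokinase, had 1 UMI in IP + LC replicate 2 and 0 in the other tumors. A count of 0 allows up to 5.17 CPM in LC replicate 1 and 2.18 to 2.54 CPM in the other 4 tumors at 0, the level of 3 UMIs.

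Aldolase splits fructose 1,6-bisphosphate into 2 triose phosphates. For Aldoa, LC replicates 1, 2 and 3 gave 629, 606 and 489.8 CPM and IP + LC replicates 1, 2 and 3 gave 816, 1008 and 760.2 CPM. No tumors overlapped between the groups, and Aldoa was 1.5-fold higher in IP + LC (log2 fold change 0.59, SE 0.21, edgeR adjusted p = 0.0712). A second row with the symbol Aldoa, under the identifier ENSMUSG00000114515 and upstream of the main gene (ENSMUSG00000030695) on chromosome 7, held 1 UMI in all. Aldoc, the brain form, had 5 to 14 UMIs per tumor and was not tested. Its ratio to Aldoa had a log2 difference of -1.17, but the UMI ratios overlapped, with 0.00776 in LC replicate 2 and 0.00810 in IP + LC replicate 2. The call for Aldoa was lost without any single tumor other than LC replicate 1, with adjusted p-values up to 0.237 and log2 fold changes from 0.47 to 0.69 over the 6 fits that each left out 1 tumor.

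Triosephosphate isomerase, encoded by Tpi1, brings both triose phosphates into the later steps of the pathway and did not pass the test. Tpi1 stood at 391, 189 and 152 CPM in the LC replicates and at 411, 496 and 373 CPM in the IP + LC replicates, in the order 1, 2 and 3. LC replicate 1 lay among the IP + LC tumors, while LC replicates 2 and 3 lay well below all of them. The log2 fold change was 0.82 (SE 0.34, edgeR adjusted p = 0.106) with all tumors and 1.33 (SE 0.16, adjusted p = 1.27e-05) without LC replicate 1. Without LC replicate 3 it was 0.56 (adjusted p = 0.264), and under 6 other settings of the fit Tpi1 passed (adjusted p 0.00788 to 0.0989).

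Glyceraldehyde-3-phosphate dehydrogenase, Gapdh, is the enzyme that makes the NADH of glycolysis and is often used as a reference gene. For Gapdh, LC replicates 1, 2 and 3 gave 134, 65.8 and 38.98 CPM and IP + LC replicates 1, 2 and 3 gave 157, 177 and 123 CPM. The value of LC replicate 1 lay between those of IP + LC replicates 3 and 1, so the groups overlapped, and Gapdh was 1.98-fold higher in IP + LC (log2 fold change 0.99, SE 0.39, edgeR adjusted p = 0.0923). Gapdh has many processed pseudogenes, and all of the last 500 nucleotides of its transcript, near which these libraries were read, are shared with near-identical transcripts of other genes. Together, 52 pseudogene rows held 126, 141 and 99 UMIs in LC replicates 1, 2 and 3 and 326, 479 and 282 UMIs in the IP + LC replicates. Gapdh itself held 78, 84 and 46 UMIs and 217, 303 and 170 UMIs. The pseudogene rows thus took 60.04% to 68.3% of the joint UMIs in each tumor, more than the gene. Gm7336 on chromosome 7 alone held 100, 110 and 71 UMIs in LC and 259, 389 and 219 UMIs in IP + LC. With the pseudogene rows added to Gapdh, the log2 fold change was 0.87 (SE 0.36) and the adjusted p of 0.1015 missed the limit. The call for Gapdh was lost without any single tumor other than LC replicate 1, with adjusted p-values up to 0.264 and log2 fold changes from 0.64 to 1.55 over the 6 fits that each left out 1 tumor.

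**Figure D3:**
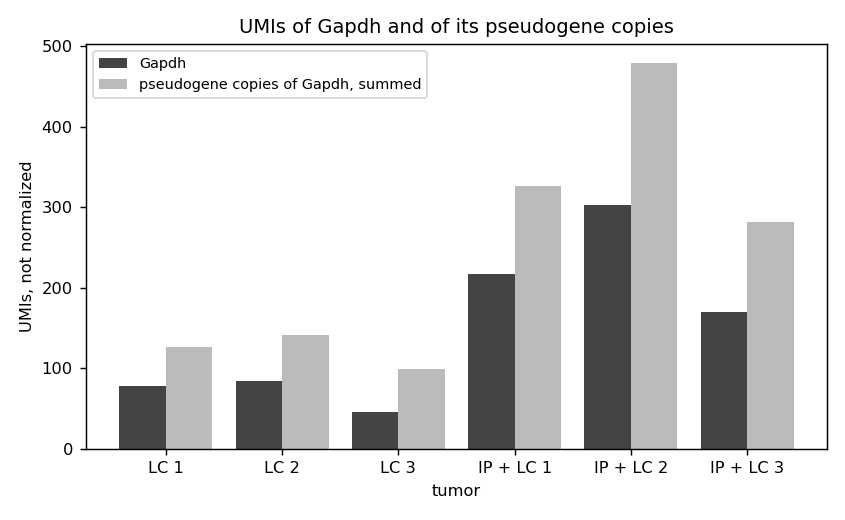
UMIs of Gapdh (dark bars) and of its 52 pseudogene rows summed (light bars) in each tumor, not normalized for depth. The pseudogene bar is the taller in all 6 tumors, from 99 UMIs in LC replicate 3 to 479 UMIs in IP + LC replicate 2.

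Phosphoglycerate kinase, which makes the first ATP of the pathway, was higher in IP + LC by its gene Pgk1. Pgk1 stood at 46.5, 26.6 and 13.6 CPM in the LC replicates and at 79.8, 77.05 and 55.2 CPM in the IP + LC replicates, in the order 1, 2 and 3. The lowest IP + LC tumor lay above the highest LC tumor, and Pgk1 was 2.62-fold higher in IP + LC (log2 fold change 1.39, SE 0.37, edgeR adjusted p = 0.0243). Near-identical transcripts share 68.8% of the Pgk1 transcript and 16.4% of its last 500 nucleotides, and with their rows added the log2 fold change was 1.40 (adjusted p = 0.0240). The call for Pgk1 was lost without LC replicate 2 or IP + LC replicate 2, with adjusted p-values up to 0.102 and log2 fold changes from 1.01 to 1.81 over the 6 fits that each left out 1 tumor. The mutase that follows, Pgam1, had 1 to 9 UMIs per tumor and was not tested.

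Enolase makes phosphoenolpyruvate. Eno1 had 167, 95.6 and 67.8 CPM in LC replicates 1, 2 and 3 and 229.8, 277 and 199.7 CPM in IP + LC replicates 1, 2 and 3. LC replicate 1 was the highest LC tumor and still lay below the lowest IP + LC tumor, and Eno1 was 2.18-fold higher in IP + LC (log2 fold change 1.12, SE 0.32, edgeR adjusted p = 0.0309). Although 99.4% of the last 500 nucleotides of Eno1 are shared with near-identical transcripts, its pseudogene rows held 16 UMIs over all tumors, and with them added the log2 fold change was 1.14. The call for Eno1 was lost without LC replicate 2 or IP + LC replicate 2, with adjusted p-values up to 0.129 and log2 fold changes from 0.86 to 1.53 over the 6 fits that each left out 1 tumor. The neuronal form Eno2 had 2 to 10 UMIs per tumor and was not tested. Its ratio to Eno1 was 0.0309, 0.0492 and 0.0250 in LC and 0.0126, 0.0211 and 0.0218 in IP + LC, which did not overlap (exact two-sided permutation p = 0.1).

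Pyruvate kinase, Pkm, makes pyruvate and the second ATP. For Pkm, LC replicates 1, 2 and 3 gave 778, 303 and 275 CPM and IP + LC replicates 1, 2 and 3 gave 947, 989.9 and 761 CPM. LC replicate 1 lay above IP + LC replicate 3, while the other LC tumors lay far below all IP + LC tumors, and Pkm was 2.001-fold higher in IP + LC (log2 fold change 1.00, SE 0.39, edgeR adjusted p = 0.0844). The counts are per gene, so the M1 and M2 forms of Pkm, which come from 1 gene by a choice of exons, cannot be told apart. Of its exons, 15.3% overlap Gm49759 on the same strand, and near-identical transcripts share 65.5% of the transcript but none of its last 500 nucleotides. The call for Pkm was lost without any single tumor other than LC replicate 1, with adjusted p-values up to 0.257 and log2 fold changes from 0.74 to 1.65 over the 6 fits that each left out 1 tumor.

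At lactate dehydrogenase, 1 isoform was higher in IP + LC and the other was lower. The A subunit, encoded by Ldha, favours the making of lactate from pyruvate. Ldha stood at 763, 497 and 380.5 CPM in the LC replicates and at 1129.7, 1229 and 1035 CPM in the IP + LC replicates, in the order 1, 2 and 3. Every IP + LC tumor lay above every LC tumor, and Ldha was 2.08-fold higher in IP + LC (log2 fold change 1.05, SE 0.27, edgeR adjusted p = 0.0219). The B subunit, encoded by Ldhb, is the form of the heart and favours the use of lactate. Ldhb had 160.1, 219 and 208 CPM in LC replicates 1, 2 and 3 and 35.5, 29.8 and 40.7 CPM in IP + LC replicates 1, 2 and 3. The groups were several-fold apart with no overlap, and Ldhb was 5.57-fold lower in IP + LC (log2 fold change -2.48, SE 0.23, edgeR adjusted p = 0.000721). Near-identical transcripts share 56.6% of the Ldha transcript but 3.0% of its last 500 nucleotides. Both calls held without each tumor in turn, with log2 fold changes from 0.84 to 1.38 for Ldha and from -2.59 to -2.34 for Ldhb.

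For each Ldha UMI there were 0.210, 0.440 and 0.548 Ldhb UMIs in LC replicates 1, 2 and 3 and 0.0315, 0.0242 and 0.0393 in IP + LC replicates 1, 2 and 3. On average the ratio was 11.8-fold lower in IP + LC (log2 difference -3.56, from -1.43 ± 0.72 in LC to -5.00 ± 0.35 in IP + LC, SD, n = 3 each), and the exact two-sided permutation p was 0.1, the smallest possible. This ratio does not depend on how libraries are scaled. Cardiac muscle markers, which also fell in IP + LC (7 of 7 tested, 1087 to 2216 CPM in LC against 163 to 415 CPM in IP + LC), and airway and alveolar markers moved with Ldhb. Endothelial markers (6 of 6 lower, 942 to 1677 CPM in LC against 354 to 443 CPM in IP + LC), erythroid markers (4 of 4 tested lower, 1743 to 7431 CPM against 769 to 2146 CPM) and neutrophil markers (3 of 5 lower) did so too, and the part of these cell types in the fall of Ldhb was not tested. Near-identical transcripts share 76.8% of the Ldhb transcript and 61.8% of its last 500 nucleotides. With the pseudogene row added, the log2 fold change of Ldhb was -2.45.

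Lactate leaves or enters cells with a proton through monocarboxylate carriers, and the carriers Slc16a1 and Slc16a3 were both higher in IP + LC. Slc16a1 stood at 94.7, 49.4 and 34.7 CPM in the LC replicates and at 167, 176 and 139 CPM in the IP + LC replicates, in the order 1, 2 and 3. No LC tumor reached the IP + LC tumors for this carrier, MCT1, and Slc16a1 was 2.79-fold higher in IP + LC (log2 fold change 1.48, SE 0.34, edgeR adjusted p = 0.0126). Slc16a3 encodes MCT4, the carrier best known for lactate export from glycolytic cells. Slc16a3 had 32.7, 15.7 and 16.1 CPM in LC replicates 1, 2 and 3 and 46.4, 65.96 and 29.04 CPM in IP + LC replicates 1, 2 and 3. LC replicate 1 lay above IP + LC replicate 3, so the groups overlapped, and Slc16a3 was 2.38-fold higher in IP + LC (log2 fold change 1.25, SE 0.38, edgeR adjusted p = 0.0393). The call for Slc16a3 was lost without LC replicate 2, LC replicate 3, IP + LC replicate 1 or IP + LC replicate 2, with adjusted p-values up to 0.168 and log2 fold changes from 0.93 to 1.60 over the 6 fits that each left out 1 tumor. The ratio of Slc16a1 to Slc16a3 overlapped between the groups, at 2.90, 3.15 and 2.16 in LC and 3.59, 2.66 and 4.78 in IP + LC (exact two-sided permutation p = 0.3).

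Of the 4 pyruvate dehydrogenase kinases, 1 was higher in IP + LC, 1 was lower, 1 did not pass the test and 1 was not tested. Pdk1, a textbook target of hypoxia-inducible factor 1, had a log2 fold change of 0.09 (SE 0.27, edgeR adjusted p = 0.838), and its groups overlapped. Pdk2, a kinase found in most tissues, was lower in IP + LC. For Pdk2, LC replicates 1, 2 and 3 gave 22.4, 42.3 and 30.5 CPM and IP + LC replicates 1, 2 and 3 gave 5.08, 4.67 and 5.81 CPM. All IP + LC tumors lay far below the LC tumors, on 7 or 8 UMIs each, and Pdk2 was 6.26-fold lower in IP + LC (log2 fold change -2.65, SE 0.34, edgeR adjusted p = 0.00137). Pdk3 was higher. Pdk3 had 36.2, 25.9 and 30.5 CPM in LC replicates 1, 2 and 3 and 50.03, 43.2 and 50.8 CPM in IP + LC replicates 1, 2 and 3. The gap between the groups was narrow, and Pdk3 was 1.58-fold higher in IP + LC (log2 fold change 0.66, SE 0.21, edgeR adjusted p = 0.0477). The call for Pdk3 was lost without any single tumor other than LC replicate 1, with adjusted p-values up to 0.190 and log2 fold changes from 0.54 to 0.78 over the 6 fits that each left out 1 tumor.

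Pdk4, the kinase that rises with fasting and fat use in heart and muscle, did not reach the filter on low counts. It had 4, 27 and 29 UMIs in LC replicates 1, 2 and 3 and 2, 4 and 2 UMIs in the IP + LC replicates. LC replicates 2 and 3 were high and the other 4 tumors had 4 UMIs or fewer. Relative to depth, the sum over the tumors was 11.04-fold higher in LC (95% interval 5.26 to 26.7, counting error only), and in the fit without a filter the log2 fold change was -3.21 (SE 0.56, adjusted p = 3.79e-07). The same marker lists that moved with Ldhb moved with Pdk2 and Pdk4 as well, and their part was not tested.

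Against Pdk1 as the reference, Pdk2 had 0.650, 1.74 and 1.39 UMIs for each Pdk1 UMI in LC and 0.184, 0.138 and 0.276 in IP + LC (log2 difference -2.53). The ratio of Pdk4 to Pdk1 was 0.200, 0.871 and 1.12 in LC and 0.0526, 0.0690 and 0.0690 in IP + LC (log2 difference -2.99). Neither of these ratios overlapped between the groups, each with an exact two-sided permutation p of 0.1. The ratio of Pdk3 to Pdk1 did overlap (log2 difference 0.61, p = 0.2 by the same exact test).

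**Figure D4:**
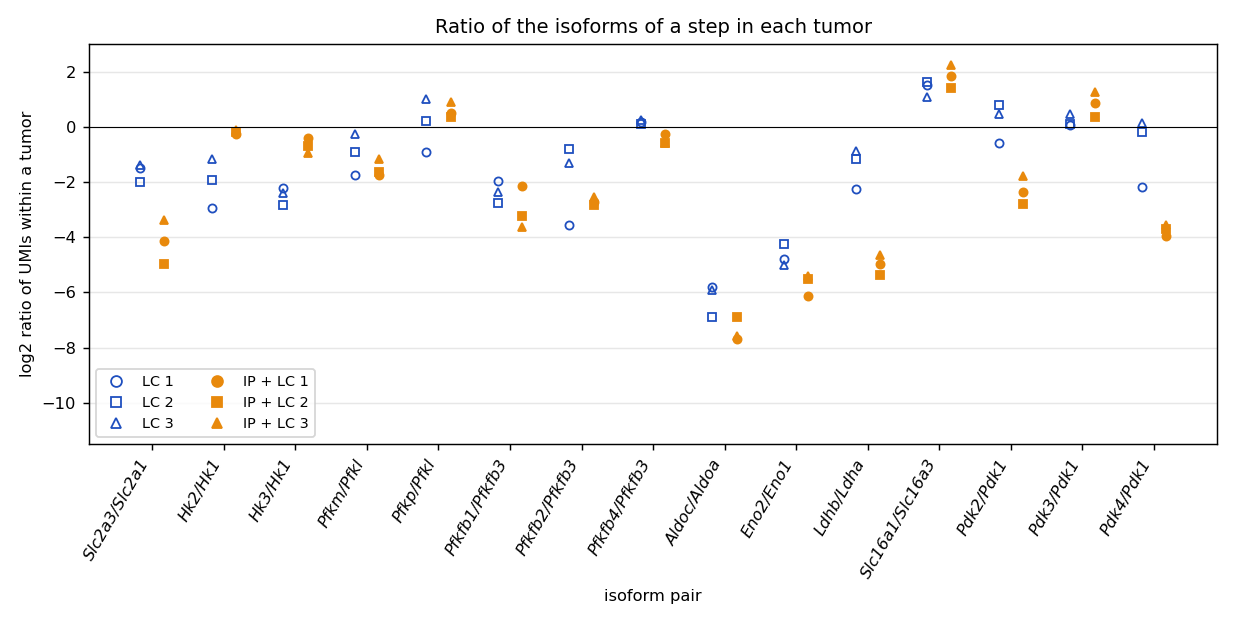
Log2 ratio of the UMIs of both isoforms in each tumor (0.5 UMIs added to each count) for the 15 isoform pairs, with open blue symbols for LC and filled orange symbols for IP + LC. The ratio of Ldhb to Ldha drops from a mean of -1.43 to -5.00, the ratios of Hk2 and Hk3 to Hk1 rise, and the ratio of Slc16a1 to Slc16a3 overlaps between the groups.

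Over the 15 isoform pairs, UMI ratios did not overlap between the groups for 8 and overlapped for 7. Single genes did not overlap in 21.6% (higher) and 21.5% (lower) of all genes tested, so nothing particular to the isoforms is read from this count. The 8 pairs were Hk2/Hk1 and Hk3/Hk1, which lay higher in IP + LC, and Slc2a3/Slc2a1, Pfkfb4/Pfkfb3, Eno2/Eno1, Ldhb/Ldha, Pdk2/Pdk1 and Pdk4/Pdk1, which lay lower. For Slc2a3 the ratio to Slc2a1 was 0.333, 0.244 and 0.370 in LC and 0.0516, 0.0282 and 0.0877 in IP + LC (log2 difference -2.55, exact two-sided permutation p = 0.1). None of the pairs passed an adjusted p of 0.1, which 3 tumors against 3 cannot reach after adjustment over 15 pairs, where the smallest value was 0.167.

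The pyruvate dehydrogenase complex itself, which turns pyruvate into acetyl-CoA, held no member that passed the test. Its E1 beta subunit Pdhb had the smallest p. For Pdhb, LC replicates 1, 2 and 3 gave 136, 131 and 88.98 CPM and IP + LC replicates 1, 2 and 3 gave 94.99, 72.4 and 79.9 CPM. IP + LC replicate 1 lay above LC replicate 3, and the log2 fold change was -0.52 (SE 0.23, edgeR adjusted p = 0.128) with all tumors, -0.42 (adjusted p = 0.0768) without LC replicate 1 and -0.71 (adjusted p = 0.0597) without LC replicate 3. Pdha1, the E1 alpha subunit (log2 fold change -0.27, SE 0.23, adjusted p = 0.413), and Dlat, the E2 subunit (0.21, SE 0.23, adjusted p = 0.532), overlapped between the groups. Of the Pdha1 exons, 16.1% overlap Map3k15 on the other strand. Near-identical transcripts share 71.2% of the Pdhb transcript and 31.6% of its last 500 nucleotides, so the Pdhb count is uncertain.

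The 3 members from the pentose phosphate pathway, a pathway that makes NADPH and ribose from glucose 6-phosphate, did not pass the test either. Pgd, the 6-phosphogluconate dehydrogenase, had the smallest p of them. Pgd had 167, 129 and 99.995 CPM in LC replicates 1, 2 and 3 and 143, 164 and 162 CPM in IP + LC replicates 1, 2 and 3. The groups overlapped, with LC replicate 1 the highest tumor of all, and the log2 fold change was 0.25 (SE 0.23, edgeR adjusted p = 0.441). Without LC replicate 1 it was 0.45 (SE 0.16, adjusted p = 0.0259). Transketolase, Tkt (log2 fold change 0.06, SE 0.19, adjusted p = 0.842), and transaldolase, Taldo1 (-0.17, SE 0.21, adjusted p = 0.590), did not pass with or without that tumor.

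Several of these values changed when LC replicate 1 was left out. Without it, 31 members were tested, 19 were higher and 5 were lower in IP + LC, and the 17 calls made with all tumors held in the same direction. The 4 further higher members were Pfkl, Tpi1, Pfkfb3 and Pgd, and the 3 further lower members were Pfkfb2 (log2 fold change -1.12, SE 0.42, edgeR adjusted p = 0.0370), Pdhb and Pdk4 (-3.60, SE 0.42, adjusted p = 7.89e-06). The background moved too, since 28.3% of the 11748 genes then tested were higher and 28.7% were lower. Among the LC tumors, LC replicate 1 had the highest summed proliferation markers and the highest Pkm, Tpi1 and Gapdh, and the part of these markers, 5 of 6 of which were higher in IP + LC, was not tested.

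A list of 47 other genes of the same and neighbouring reactions, chosen for their place in the pathway is given beside the members. Of these, 46 were found and 25 were tested, of which 2 (8%) were higher and 10 (40%) were lower in IP + LC, against 16.8% and 19.6% of all genes tested. Their median log2 fold change was -0.06, and the 12 calls became 16 when LC replicate 1 was left out, 6 when IP + LC replicate 1 was and 4 when IP + LC replicate 2 was. Higher were Adpgk, an ADP-dependent glucokinase (log2 fold change 0.83, SE 0.24, edgeR adjusted p = 0.0319), and G6pdx, the first enzyme of the pentose phosphate pathway (0.72, SE 0.22, adjusted p = 0.0419). Lower by the largest amounts were Pgam2, the muscle mutase (-1.89, SE 0.53, adjusted p = 0.0297), Slc16a7, the carrier MCT2 (-1.83, SE 0.62, adjusted p = 0.0558), Eno3, the muscle enolase (-1.34, SE 0.30, adjusted p = 0.0115), Pcx, pyruvate carboxylase (-1.23, SE 0.26, adjusted p = 0.00934), and Galm, galactose mutarotase (-1.22, SE 0.31, adjusted p = 0.0191). Of these 7 genes, Eno3, Pcx and Galm kept their calls without each tumor in turn. The calls of Pgam2 and Slc16a7 were lost without LC replicate 2, IP + LC replicate 1 or IP + LC replicate 2, and that of Slc16a7 also without LC replicate 3 (adjusted p up to 0.169 and 0.208). The call of Adpgk was lost without LC replicate 3 or IP + LC replicate 2 (adjusted p up to 0.121), and that of G6pdx without LC replicate 2, LC replicate 3, IP + LC replicate 2 or IP + LC replicate 3 (adjusted p up to 0.148). The muscle forms Pgam2 and Eno3 fell with the cardiac markers and with Ckm, the 1 tested skeletal muscle marker of 6 listed. Ckm stood at 22.4, 16.5 and 10.2 CPM in LC replicates 1, 2 and 3. In IP + LC replicates 1, 2 and 3 it stood at 3.63, 4.67 and 8.71 CPM. All 6 skeletal muscle markers summed to 26.3 to 36.0 CPM in LC and to 9.34 to 13.8 CPM in IP + LC. The part of muscle in the fall of Pgam2 and Eno3 was not tested.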

How the data were processed

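RNA of 6 tumors was sequenced by a bulk barcoding method whose oligo-dT primer gives each captured transcript a UMI at its 3′ end. By the study's methods and the submitters' processing notes, the authors extracted UMIs with UMI-tools 1.1.1, trimmed reads with Trim Galore 0.6.7, used HISAT2 2.2.1 for alignment to GRCm38 and featureCounts 2.0.1 for assignment to genes. The deposited values are raw counts of distinct UMIs for each gene, with 1 table for each tumor. The annotation release, the use of the strand and the handling of reads with several matches are not given in the sources used here.

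Groups follow the sample titles. The labels do not say that the tumors came from separate mice, so p-values measure the spread between these samples. The members, lists and alternatives were chosen with earlier results of these data known. The named members are all 37, with values per tumor for those past the limit or, in a step with none, for the smallest p. Of the other pathway genes, those past the limit were named, up to 5 in each direction. Genes were kept by filterByExpr (minimum count 10, minimum total 15), which left 11240, scaled by TMM and compared by the quasi-likelihood test of edgeR 4.0.16 in R 4.3.3 with Benjamini-Hochberg adjustment over all of them and a limit of 0.1. CPM values (counts per 1000000 UMIs) include the TMM factors. Isoform ratios are log2 of UMIs with 0.5 added. Replicate tumors differed by more than sampling noise (chi-square per degree of freedom 2.65 to 17.7). Transcripts were compared with blastn 2.17.0+ (matches of at least 81 nucleotides and 95% identity) on GENCODE M21, in which all 31130 identifiers were found.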

Additional observations from a re-analysis of the deposited data

How the results depend on the processing

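No called member changed its direction under any alternative that was run. Scaling by DESeq2's size factors gave 15 higher and 2 lower members, upper quartile scaling 11 and 2, and library size only 18 and 2. Library size only moved the median of all genes by 0.16 on the log2 scale (median of the members 0.82) and the share of higher genes among all calls from 46.1% to 58.3%. DESeq2 1.42.0 gave 15 and 2, limma voom (limma 3.58.1) 17 and 2, no filter on low counts 17 and 3, and a limit of 0.05 gave 11 and 2. Upper quartile scaling ended the calls of Gpi1, Aldoa, Gapdh and Pkm (adjusted p 0.1 to 0.123) and DESeq2 that of Pdk3 (adjusted p 0.139). Tpi1, not called above, passed under library size only, no filter, at least 10 UMIs in every library, DESeq2, limma voom and the replicate block (adjusted p 0.00788 to 0.0989). Pfkl passed under library size only, no filter, at least 10 UMIs in every library and limma voom (adjusted p 0.0236 to 0.0997), and Pfkfb3 under library size only and at least 10 UMIs in every library (0.0658 and 0.0905). At least 10 UMIs in every library gave 16 higher members and 1 lower member, and Hk2, Hk3 and Pdk2 were then not tested. With every library thinned to 592733 UMIs, which leaves fewer counts, 8 members were higher (the calls of Hk1, Gpi1, Aldoa, Gapdh, Pkm, Slc16a3 and Pdk3 were lost, with adjusted p from 0.105 to 0.491 and log2 fold changes of 0.63 for Hk1 and 0.32 for Pdk3), 2352 of all genes passed and 6 of the other pathway genes passed, and the log2 differences of the ratios Slc2a3/Slc2a1, Hk3/Hk1 and Pfkfb4/Pfkfb3 moved to -1.68, 2.2 and -0.93. Leaving out each tumor in turn gave 6 to 19 higher members (6 without LC replicate 2, 19 without LC replicate 1), 2 to 5 lower members, 2265 to 6691 of all genes and 4 to 16 other pathway genes, and the cause was not tested. Adding pseudogene rows to their parent genes, an alternative chosen after seeing the data, gave 14 and 2.

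No pairing of the tumors by replicate number was seen. Correlations of the deviations of same-numbered tumors were 0.03, -0.12 and 0.11, and 2 of 6 tumors correlated best with their own number. With 3 tumors in each group, these values cannot exclude a pairing. With the replicate number as a block, 14 members were higher and 2 lower, with the calls of Gpi1 and Aldoa lost (adjusted p 0.132 and 0.128) and that of Tpi1 gained, and 3410 of all genes and 11 of the other pathway genes passed. The 8 members that were not tested had at most 29 UMIs in a tumor, at which a low level and limited depth cannot be told apart. Near-identical transcripts share 43.1% of the Pgam1 transcript but none of its last 500 nucleotides. Of the Pfkfb2 exons, 17.4% overlap Gm29427 on the same strand. The part of shared or overlapping sequence in these low counts was not tested.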
